A study of Mus musculus with 22 samples.

Results

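The 8 genes described here carry out the synthesis of triglyceride in adipocytes: Gpam, Agpat2, Lpin1, Dgat1, Dgat2, Mogat1, Pck1 and Gpd1. They were taken by name, for their place in the pathway, out of 21938 protein-coding genes. The rule itself uses no measured value. The locus of a gene was its annotated span in the mouse build GRCm38 (GENCODE vM21) with 20 kb added on each side, and all ATAC-seq peaks that overlap a locus in any of 22 libraries were used. ATAC-seq reports open chromatin by where a transposase inserts into DNA. The nuclei came from epididymal fat of AdipoERCre x NuTRAP mice on a background labelled C576BL6, in which a tamoxifen-inducible Cre under the adiponectin promoter switches on a biotin tag on adipocyte nuclei. Every group, controls included, carried both alleles and received tamoxifen, and each library is 1 animal. The short arm held 18-week-old mice kept on low-fat chow (C, n = 3) or moved to high-fat diet for 12 weeks (H, n = 3), and mice 8 weeks older, namely chow controls (CC_s, n = 3) and mice returned to chow for 8 weeks after those 12 weeks (HC, n = 3). The long arm held controls aged 31 weeks (CC_l, n = 2), equally old mice with 25 weeks on the diet (HH, n = 3), controls aged 39 weeks (CCC, n = 2) and mice returned to chow for 8 weeks after the long diet (HHC, n = 3). The word obese stands for H with HH, and weight loss for HC with HHC. The chow of the last 8 weeks was another product, given to CC_s and CCC too, so these controls differ from C and CC_l in both age and chow. The sample names of the arms carry different prefixes, and whether the arms were prepared apart is not stated.

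Triglyceride is built on a glycerol 3-phosphate backbone. In adipocytes the backbone comes from glucose through Gpd1, a glycerol 3-phosphate dehydrogenase, or from non-carbohydrate precursors through Pck1, the enzyme that commits glyceroneogenesis. Gpam adds the first fatty acid in mitochondria, Agpat2 adds the next in the endoplasmic reticulum, and Lpin1 removes the phosphate to give diacylglycerol. Dgat1 and Dgat2 add the last fatty acid, and Mogat1 makes diacylglycerol from monoacylglycerol. Loss of Agpat2 or Lpin1 causes lipodystrophy, and several of these genes are known targets of PPARγ, the nuclear receptor that drives adipocyte differentiation.

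The peak lists held between 40528 and 60523 peaks a library and covered between 128 and 299 Mb. The read depth of each library is not known from them. The median peak maximum divided by the lowest peak maximum, a measure of how far peaks stand above the calling threshold, ran from 6.82 to 8.92 in C, 7.3 to 7.42 in CC_s, 4.67 to 7.3 in CC_l and 3.67 to 8.2 in CCC. It ran from 4.7 to 6.4 in H, 3.75 to 6.2 in HH, 2.43 to 6.5 in HC and 2.25 to 6.42 in HHC. The lowest values belonged to HC 3 and HHC 3. Some differences after weight loss moved by over 1.5 times without these libraries. Values with and without them are given for Gpam, Mogat1, Pck1, Dgat1, Dgat2, Lpin1 and Gpd1, though not for every such difference. In HC the Agpat2 difference went from 0.10 to -0.02 without HC 3. Promoter peaks were present at 11 or 12 of 12 adipocyte marker genes in every library, with 12 of 12 in all but 1 HHC library. They were present at 2 to 6 of 12 macrophage, 0 to 5 of 6 endothelial, 2 to 6 of 6 progenitor, 0 to 6 of 6 mesothelial and 0 to 2 of 6 lymphocyte markers. The highest macrophage and mesothelial counts were in HHC and the highest endothelial count was in HH. Of the macrophage markers, Cd68 and Spi1 had a promoter peak in 22 libraries, Csf1r and Lyz2 in 9, Tyrobp in 3, Adgre1 and Mrc1 in 2, Itgam, C1qa and Ptprc in 1, and Ccr2 and Fcgr1 in 0. In each group, fewer adipocyte nuclei and less accessible adipocyte nuclei cannot be told apart. The part of enrichment and of other cell types in the differences below was not tested unless a value is given.

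The sequences at the 2 Gpam starts and at its recurrent summits are shown first, since the Gpam results turn on which of its stretches carried peaks. Gpam (ENSMUSG00000024978.11) lies on the minus strand of chromosome 19, from 55067268 to 55127238, and has an annotated internal start 27.8 kb into the gene. The 250 bases before each start, from RefSeq on GRCm38.p6 (a promoter was found for 5 of the 8 genes), and the 201 bases around the 2 recurrent summits of the locus are given 5′ to 3′ on the minus strand. A summit is the base range of highest coverage in a library's strongest peak. It fell 12.3 kb upstream of the start in 14 libraries and 24.0 kb into the gene in 8 libraries, with a spread of 182 and 100 bases between libraries. All windows were searched on both strands for the direct repeat bound by PPARγ with RXR (AGGTCA repeated after 1 free base), TTGCGCAA (C/EBP) and the NF1 site (TTGGC and GCCAA with 5 free bases between them), which do not overlap one another in the windows printed. Capitals mark a match of at least 10 of 12, 7 of 8 or 9 of 10 letters.
Gpam before the annotated start, chr19:55127239-55127488: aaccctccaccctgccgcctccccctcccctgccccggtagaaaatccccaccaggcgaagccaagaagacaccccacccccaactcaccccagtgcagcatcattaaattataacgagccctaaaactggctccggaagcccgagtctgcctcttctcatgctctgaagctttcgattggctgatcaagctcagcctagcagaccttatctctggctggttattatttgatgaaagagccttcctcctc
Gpam before the internal start, chr19:55099478-55099727: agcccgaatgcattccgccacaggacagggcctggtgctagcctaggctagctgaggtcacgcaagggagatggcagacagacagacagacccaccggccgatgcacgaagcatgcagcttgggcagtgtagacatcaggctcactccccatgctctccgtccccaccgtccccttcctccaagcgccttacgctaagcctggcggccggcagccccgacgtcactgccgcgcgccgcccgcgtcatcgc
Gpam summit upstream, chr19:55139394-55139594, intergenic: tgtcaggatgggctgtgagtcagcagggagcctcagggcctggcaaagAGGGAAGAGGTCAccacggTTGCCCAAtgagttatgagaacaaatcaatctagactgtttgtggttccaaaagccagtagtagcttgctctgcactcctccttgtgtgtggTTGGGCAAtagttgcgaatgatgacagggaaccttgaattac
Gpam summit in the gene, chr19:55103135-55103335, within Gpam and an exon of the annotated gene AC110206.1: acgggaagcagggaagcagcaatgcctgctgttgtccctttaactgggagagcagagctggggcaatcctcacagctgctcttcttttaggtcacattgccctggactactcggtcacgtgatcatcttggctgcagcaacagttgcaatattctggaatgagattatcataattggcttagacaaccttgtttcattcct
The upstream Gpam summit held 10 of 12 letters of the PPARγ and RXR repeat, as did 4.16% of 43307 summit windows of library C 1, and 7 of 8 letters of the C/EBP site in 2 places, where 8.81% of those windows held at least 1 such match. No window before a Gpam start and no window at the summit in the gene held a match at these limits.

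In the control libraries peaks covered most of the Gpam gene body, and in the obese and weight loss libraries coverage was lower around the annotated start. Controls had gaps there too, with a peak in 4 of 10 at 2 kb upstream and in 6 of 10 at 16 kb into the gene. A peak covered the promoter of Gpam, the 2 kb on each side of its start, in all 10 control libraries. It did so in 3 of the 12 obese and weight loss libraries, namely H 3, HC 3 and HH 3. None of the 3 HHC libraries had one. Of 11262 protein-coding genes with a promoter peak in all 10 controls, 28 (0.249%) had a promoter peak in 3 or fewer of those 12 libraries. The limit of 3 is the count of Gpam itself, set after its coverage had been seen, so this share is no independent test. At 12 kb upstream, next to the recurrent summit, all 22 libraries had a peak. At 10 kb into the gene a peak was present in 8 of 10 controls and in 0 of 12 others, and at 14 kb in 7 and 0. These positions were picked from the profile after it was seen. At 24 kb into the gene all 22 libraries were covered, and at 66 kb 10 of 10 controls and 10 of 12 others.

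**Figure D1:**
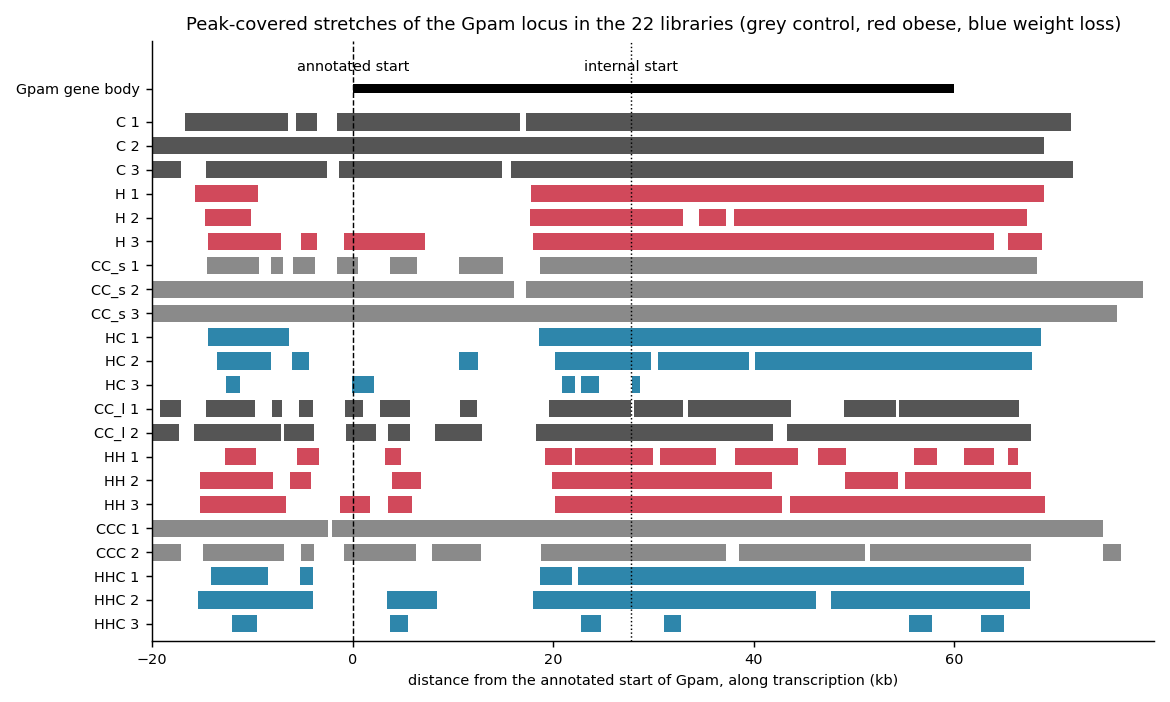
Peak-covered stretches (bars) of the Gpam locus in each of the 22 libraries, by distance in kb from the annotated start along the direction of transcription, with the annotated start dashed and the internal start dotted. Bars reach across the start in all 10 control libraries and in 3 of the 12 obese and weight loss libraries, while the stretch near 24 kb carries a peak in all 22.

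Coverage of the 20 kb before the start of Gpam was 69.7 to 100% in C and 23.0 to 49.2% in H, 51 to 100% in CC_s and 7.25 to 40.6% in HC, 51.4 to 74.5% in CC_l and 26.6 to 49.2% in HH, and 65.4 to 98.0% in CCC and 12.5 to 57.4% in HHC. It was lower without overlap in all 4 pairs, as at 33 (0.176%) of 18741 genes with a peak there. Coverage was then measured from the start of Gpam to its internal start. C had 96.7 to 100% of this stretch covered and H 36 to 61.1%. CC_s had 60.4 to 100% and HC 18.9 to 34.2%, CC_l had 49.8 to 67.5% and HH 35.8 to 42.5%, and CCC had 72.6 to 100% and HHC 13.7 to 53.1%. In all 4 pairs of equal age the obese or weight loss libraries lay below the controls without overlap. Among 7440 genes at least as long, 22 (0.296%) had a first 27.8 kb that was lower without overlap in all 4 pairs. This stretch was chosen after its coverage had been seen. From the internal start to the end of the gene, controls were 80.7 to 100% covered, with a median of 100%, and the others 2.6 to 100%, with a median of 95.5%, and HC 3 and HHC 3 were the lowest.

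Enrichment moved with the groups in the short arm, where all H and HC libraries had lower ratios than all C and CC_s libraries, and the groups overlapped in the long arm. In H the library with a promoter peak, H 3, had the highest ratio (6.4, against 5.1 and 4.7). In HH the peak was present in HH 3 (6) and absent in HH 1 (3.75) and in HH 2 (6.2). In HC it was present in HC 3 (2.43) and absent in HC 1 (6.5) and HC 2 (6.25), and HHC 2 (6.42) had none. Of the controls, CCC 2 (3.67) and CC_l 1 (4.67) had a promoter peak, with 72.6% and 49.8% of the first stretch covered, against 100% in CCC 1 (8.2) and 67.5% in CC_l 2 (7.3). Within CCC and within CC_l coverage was higher at the higher ratio. Within CC_s it was 60.4% in CC_s 1 (7.375) and 100% in CC_s 3 (7.3). Within C it was lowest, at 96.7%, in C 3, which had the highest ratio (8.92). The part of enrichment in the Gpam difference was not tested.

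Markers of other cell types also moved with some groups. Progenitor markers summed to 26.7 to 38.8 ppm of a library's signal in CC_s and 47.0 to 67.8 in HC, and to 33.3 to 41.4 in CCC and 54.9 to 61.7 in HHC, without overlap in either pair. They summed to 36.6 to 38.4 in CC_l and 39.0 to 86.8 in HH, again without overlap, and overlapped between C (30.7 to 41.8) and H (34.5 to 40.4). Macrophage markers summed to 25.0 to 34.5 in C, 29.3 to 45.8 in H, 36.0 to 38.2 in CC_s and 34.0 to 51.6 in HC. In the long arm they summed to 33.7 to 42.8 in CC_l, 25.0 to 54.3 in HH, 31.9 to 42.3 in CCC and 43.8 to 72.0 in HHC. Mesothelial markers summed to 3.31 to 17.2 in C and 0 to 1.28 in H, to 8.47 to 10.0 in CC_l and 0 to 5.37 in HH, and to 5.55 to 6.54 in CCC and 11.5 to 39.9 in HHC, without overlap in these pairs, and overlapped in CC_s (4.67 to 30.7) and HC (8.46 to 31.2). Lymphocyte markers summed to 0.647 to 5.80 in C and 0 to 0.588 in H, and to 4.58 to 7.24 in CC_l and 0 to 1.44 in HH, without overlap, and overlapped in both weight loss pairs. The part of these lists in the Gpam difference was not tested.

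**Figure D2:**
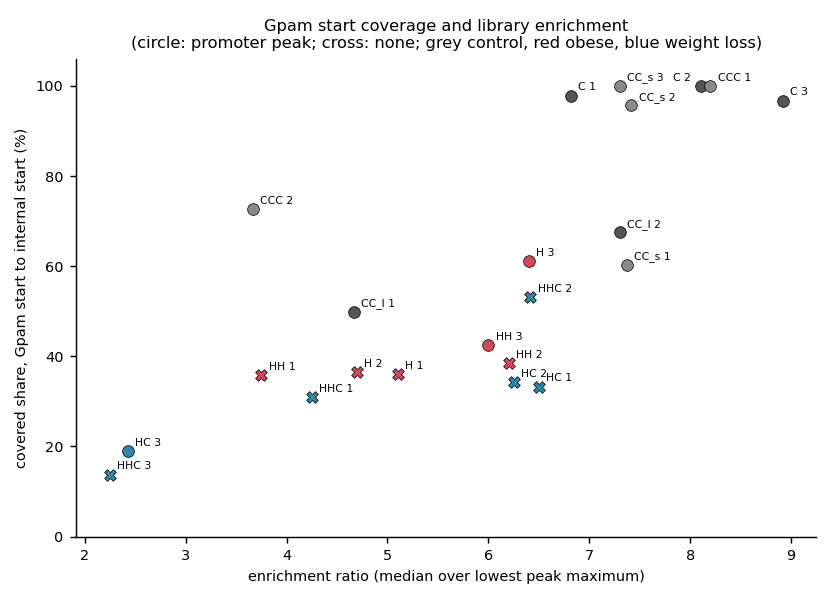
Share of the stretch from the annotated to the internal start of Gpam that is covered by peaks (percent) against the enrichment ratio of each library, 1 point per library. Controls with ratios of 3.67 and 4.67 have a promoter peak (circles), and no peak (crosses) is seen in HC 1, HC 2, HH 2 and HHC 2, at 6.2 to 6.5, nor in HH 1, HHC 1 and HHC 3, at 2.25 to 4.25, and H 1 and H 2.

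Signal was compared as the rank-mapped locus signal, in which the total signal of the peaks at a locus is replaced by the mean log2 signal at that rank over the libraries, and differences were tested with limma over all loci. The Gpam locus signal was 20.46, 20.06 and 20.03 in C and 19.31, 19.27 and 19.66 in H. All H libraries lay below all C libraries, as at 17.8% of all loci. Gpam fell by 0.77 (SE 0.16) on the log2 scale in H, with a limma adjusted p of 0.0321, as 4.38% of loci were called lower in that comparison. This call did not hold without C 1 (0.0596), C 2 (0.0897), C 3 (0.0516), H 1 (0.105) or H 2 (0.112), each value an adjusted p from limma, and it held without H 3. The difference was -0.57 (limma adjusted p = 0.128) with maximum signal and -0.39 (0.147) with covered bases. The call in H was also lost with no trend, or with 1 fit of 8 groups, the form used over both arms.

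After weight loss the Gpam signal again lay below that of controls. It was 19.98, 19.66 and 20.64 in CC_s and 19.22, 19.51 and 17.56 in HC. In the long arm it was 20.49 and 20.42 in CCC and 19.65, 19.18 and 17.97 in HHC. Weight loss libraries lay below their controls in both arms, as 9.47% of all loci did in the short and 14.3% in the long arm, by -1.33 (SE 0.53) in the short arm and -1.52 (SE 0.50) in the long arm. Neither arm passed on its own, with adjusted p of 0.542 and 0.856 by limma, and 0 loci were called in either arm. Without HC 3 the short-arm difference was -0.73 (limma adjusted p = 0.455), and without HHC 3 the long-arm difference was -1.04 (0.617). Over both arms Gpam fell by 1.43 (SE 0.33), with a limma adjusted p of 0.032, where 1.36% of loci were called lower and 0.896% higher. Without HC 3 and HHC 3 the difference was -0.89 and the limma adjusted p was 0.0308. The call was lost without CC_s 2 (0.0515), CC_s 3 (0.0932), CCC 1 (0.116), CCC 2 (0.139) or HHC 3 (0.0567), each value an adjusted p from limma. With maximum signal the difference was -0.40 (limma adjusted p = 0.146), and with covered bases -0.97 (0.11), so neither measure gave a call.

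The fitted obese difference was smaller in the long arm, and no test between the arms is given here. Gpam was 19.64 and 19.70 in CC_l and 19.64, 19.03 and 19.62 in HH, a difference of -0.24 (SE 0.22, limma adjusted p = 0.709). The groups overlapped, and CCC lay above CC_l by 0.79 (SE 0.12), without overlap as at 20.1% of loci, with a limma p of 0.00103 before and 0.493 after adjustment. Over both arms the obese difference was -0.50 (SE 0.33, adjusted p = 0.377). The difference between the weight loss and obese differences over both arms was -0.92 (SE 0.46, limma adjusted p = 0.512), and -0.38 without HC 3 and HHC 3.

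The Gpam domain, a union region of 102 kb from 55048448 to 55150541 that holds the promoter, was the 1 region of the 17 at these loci to be called, at a limma adjusted p under 0.05 and a log2 difference above 1. It fell by 1.48 (SE 0.31, adjusted p = 0.0154) after weight loss over both arms, where 1.13% of regions were called lower. Its difference was -0.95 without HC 3 and HHC 3, with a limma adjusted p of 0.00782, which lies under the fold limit, and -0.38 (0.145) with maximum signal. Without CCC 1 or CCC 2 the adjusted p was 0.0581 and 0.0833. In H it was lower by -0.88 (SE 0.14, adjusted p = 0.0095), again under the fold limit. The promoter window was fitted alone after its coverage had been seen. Its signal was 15.01, 15.69 and 15.44 in C and 14.70 in H 3, while H 1 and H 2 were at the floor, the value given to a feature with no ranked peak. In HC and HHC, 5 of 6 libraries were at the floor, and HC 3, at 15.07, lay above CC_s 1 (14.36) and below CC_s 2 (15.47) and CC_s 3 (16.59). CCC was at 16.33 and 15.45. The long obese pair overlapped, with CC_l at 13.56 and 14.32, HH 1 and HH 2 at the floor and HH 3, at 14.75, above both controls. No fold is given, since the fitted difference depends on the floor. The promoter did not pass adjustment in H (limma adjusted p = 0.0983), in HHC (0.975) or after weight loss over both arms (0.0551). It was lower at an unadjusted p under 0.01 with a fitted log2 difference above 1 in these comparisons, as were 1.46%, 0.373% and 0.931% of promoters. Between the control groups it was higher in CCC than in CC_l at the same limit (limma adjusted p = 0.637), as were 0.492% of promoters.

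**Figure D3:**
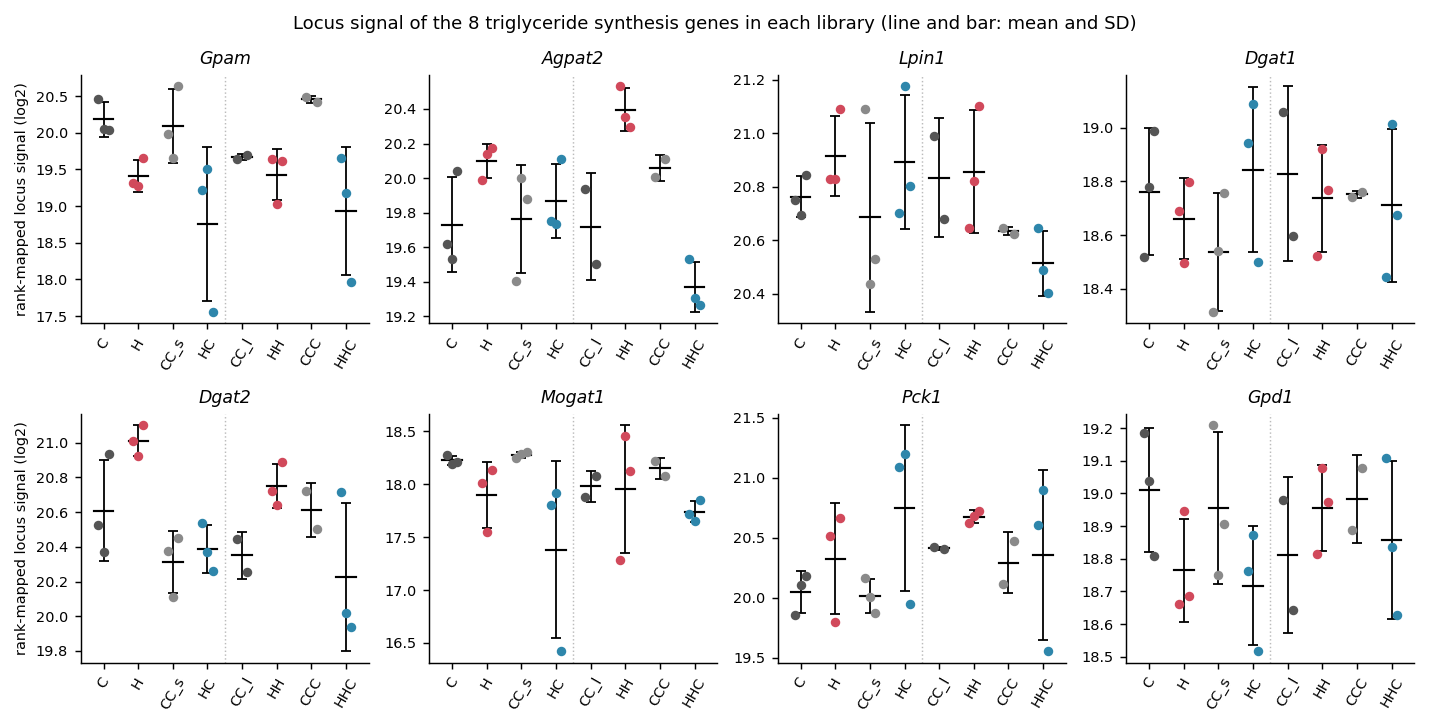
Rank-mapped locus signal (log2) of the 8 genes in each of the 22 libraries, by group, with the mean and SD of each group, and the short arm left of the dotted line. H, HC and HHC lie below their controls at Gpam without overlap, HH lies above and HHC below its control at Agpat2, and HC 3 and HHC 3 are the lowest points at Gpam.

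Agpat2 (ENSMUSG00000026922.13, chr2:26593057-26604417, minus strand) was called higher in obesity over both arms and in no other comparison. Its locus also holds Egfl7, an endothelial gene, and the annotated gene Gm20532. Its strongest peak had its summit 4.97 kb upstream of the start in 20 of 22 libraries, within 126 bases, and this window, which lies in Gm20532, is printed because it was the most regular distal summit of the locus.
Agpat2 summit upstream, chr2:26609285-26609485, minus strand: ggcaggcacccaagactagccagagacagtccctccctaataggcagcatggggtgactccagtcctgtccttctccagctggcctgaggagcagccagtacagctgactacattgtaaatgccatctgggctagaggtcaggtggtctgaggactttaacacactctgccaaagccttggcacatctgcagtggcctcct
None of the 3 motifs matched it at the limits above. Agpat2 locus signal was 19.62, 19.53 and 20.04 in C and 19.99, 20.14 and 20.17 in H, which overlapped. It was 19.94 and 19.50 in CC_l and 20.53, 20.36 and 20.29 in HH, where all HH libraries were higher, as at 15.3% of all loci. Agpat2 rose over both arms by 0.52 (SE 0.13, limma adjusted p = 0.0181), and 4.92% of loci were called higher. Endothelial markers summed to 0 ppm in C and CC_l, to 0 to 7.02 in H and to 0 to 60.7 in HH, and to 31.7 at most in HHC, and their part in the Agpat2 difference was not tested. A promoter peak was present at Kdr and Tek in 4 of 22 libraries, at Cdh5 in 3, at Tie1 in 2 and at Pecam1 and Emcn in 1, with up to 5 of these 6 in 1 HH library. The call was lost without C 2 (limma adjusted p = 0.0525) or CC_l 2 (0.123). It was also lost when each library was scaled by its share of signal (0.30, limma adjusted p = 0.518), with covered bases (0.16, 0.562) and on the gene span with no flank (0.67, 0.099), and the maximum signal gave -0.13. With peaks clipped to the locus the difference was 0.33 (limma adjusted p = 0.0482).

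In HHC the difference had the opposite sign and did not pass the test. Agpat2 signal was 20.01 and 20.11 in CCC and 19.53, 19.31 and 19.27 in HHC, a difference of -0.69 (SE 0.17) with a limma p of 0.00694 before and 0.856 after adjustment. In the short arm HC (19.75, 19.73 and 20.11) overlapped CC_s, which had a mean of 19.76 ± 0.31 (SD, n = 3). The weight loss difference minus the obesity difference was -1.36 (SE 0.27) in the long arm, with a limma p of 9.89e-05 before and 0.425 after adjustment. Over both arms it was -0.82 (SE 0.18, limma adjusted p = 0.108). Agpat2 had a promoter peak in all 22 libraries, and its gene body was at least 95.6% covered in the controls.

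Dgat2 and Dgat1, which add the last fatty acid, differed from each other in level and pattern. Dgat2 (ENSMUSG00000030747.5, chr7:99153658-99182719, minus strand) had the highest median signal per kb of the 8 loci, and lay above Pck1 in 14 of 22 libraries. Its locus also holds Uvrag, a gene of autophagy and membrane traffic. Dgat2 locus signal was 20.52, 20.37 and 20.93 in C and 21.01, 20.92 and 21.10 in H. It was 20.45 and 20.26 in CC_l and 20.72, 20.64 and 20.89 in HH. HH lay above CC_l without overlap, as at 15.3% of all loci, and H overlapped C only at C 3. The difference was 0.40 in each arm and over both arms (SE 0.13), where the limma adjusted p was 0.0715, and -0.018 over both arms with maximum signal. After weight loss it was 0.08 in the short and -0.39 in the long arm, adjusted p = 0.848 and 0.856, and 0.14 and -0.24 without HC 3 and HHC 3. The strongest summit lay 41.5 kb from the start, past the gene's end, in 18 libraries, and this window is printed because it, and not the promoter, was the highest point of the shared locus in most libraries.
Dgat2 summit downstream, chr7:99141169-99141369, intergenic, minus strand: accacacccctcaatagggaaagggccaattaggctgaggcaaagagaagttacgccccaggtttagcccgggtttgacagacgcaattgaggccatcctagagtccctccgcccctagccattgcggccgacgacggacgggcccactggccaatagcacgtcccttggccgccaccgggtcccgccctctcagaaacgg
Dgat1 (ENSMUSG00000022555.12, chr15:76502015-76511953, minus strand) had its summit 95 bases upstream of the start in all 22 libraries, within 198 bases. Its signal ranged from 18.31 to 19.09 over the 22 libraries, and the differences in the 4 pairs lay between -0.10 and 0.31, with a lowest limma adjusted p of 0.648. The highest of these, in HC, was 0.48 (limma adjusted p = 0.443) without HC 3. Its locus includes Hsf1 and Scrt1.

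Pck1 (ENSMUSG00000027513.11, chr2:173153048-173159273, plus strand) was covered over its whole gene body in every library. Its summit lay 1.05 kb upstream of the start in 17 libraries, in the region known to carry a PPARγ-responsive enhancer in fat cells. The window is printed for that reason. It held 7 of 8 letters of the C/EBP site and fewer than 10 letters of the PPARγ and RXR repeat.
Pck1 summit upstream, chr2:173151899-173152099, intergenic, plus strand: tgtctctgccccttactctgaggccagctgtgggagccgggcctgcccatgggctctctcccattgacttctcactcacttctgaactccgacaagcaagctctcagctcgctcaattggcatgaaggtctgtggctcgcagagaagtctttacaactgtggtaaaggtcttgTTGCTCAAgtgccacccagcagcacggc
Pck1 signal was 20.16, 20.01 and 19.87 in the CC_s libraries and 21.09, 21.20 and 19.95 in HC, so HC 1 and HC 2 lay above all controls and HC 3 among them. The difference was 0.73 (SE 0.33, limma adjusted p = 0.564), and 1.13 (0.119) without HC 3. In H it was 20.52, 19.80 and 20.67 against 19.85, 20.11 and 20.19 in C. In HH it was 20.63, 20.68 and 20.73 against 20.42 and 20.40 in CC_l, without overlap as at 15.3% of all loci, a difference of 0.26 (SE 0.09) that failed adjustment (limma adjusted p = 0.347) and turned to -0.35 with peaks clipped to the locus, -0.23 with maximum signal and -0.10 with covered bases. HHC 1 and HHC 2 (20.61 and 20.90) lay above CCC (20.11 and 20.48) and HHC 3 (19.56) below, a difference of 0.06, and of 0.46 without HHC 3 (limma adjusted p = 0.719). Without HC 3 and HHC 3, Pck1 was higher after weight loss over both arms by 0.80 (limma adjusted p = 0.017), against 0.40 (0.321) with them and -0.02 (0.979) with all libraries scaled by their share of signal at a pseudocount of 10.

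Mogat1 (ENSMUSG00000012187.13, chr1:78510991-78538173, plus strand) was the weakest locus, with a median of 24.4% of its bases covered. Its signal was 18.27, 18.19 and 18.21 in C and 18.01, 17.55 and 18.13 in H. It was 18.25, 18.28 and 18.30 in CC_s and 17.81, 17.92 and 16.42 in HC. In the long arm it was 17.88 and 18.08 in CC_l, 17.28, 18.45 and 18.13 in HH, 18.22 and 18.08 in CCC and 17.72, 17.65 and 17.85 in HHC. H, HC and HHC lay below their controls without overlap, in comparisons where 17.8%, 9.47% and 14.3% of all loci did so, and HH overlapped its control. No difference passed the test (limma adjusted p = 0.262, 0.572 and 0.856), and over both arms the weight loss difference was -0.65 (SE 0.24, limma adjusted p = 0.145). Without HC 3 it was -0.41 (limma adjusted p = 0.249), and the HC difference went from -0.90 to -0.42. Within the locus the parts differed. The region around the promoter was lower in H by -1.10 (SE 0.38, limma adjusted p = 0.0813). A region past the gene's end, chr1:78546180-78551315, was above the floor in all 3 H and all 3 HH libraries, in C 3, CC_s 3, CC_l 2 and CCC 1 among the controls, in HC 1 and HC 2, and in no HHC library. It was higher in obesity over both arms by 0.77 (SE 0.18, limma adjusted p = 0.0092), which passes the p but not the fold limit. This region was singled out after its values were seen, and 6 of 10 controls were at the floor, on which the difference depends. Without CC_l 1 the adjusted p by limma was 0.0648, and with the 30000 strongest peaks the difference was 0.17 (limma adjusted p = 0.0677).

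Lpin1 (ENSMUSG00000020593.15, chr12:16535669-16610966, minus strand) and Gpd1 (ENSMUSG00000023019.12, chr15:99717515-99725005, plus strand) differed little in the signal of the whole locus. Lpin1 ranged from 20.40 to 21.18 over all libraries, with pair differences between -0.12 and 0.21, and the lowest limma adjusted p in the pairs was 0.325. The Lpin1 difference in HHC went from -0.12 to -0.07 (limma adjusted p = 0.922) without HHC 3. Its promoter peak was absent only in HC 3. Gpd1 ranged from 18.52 to 19.21 and its pair differences lay between -0.25 and 0.14, with a lowest limma adjusted p of 0.296. Without HC 3 its HC difference went from -0.24 to -0.14, and without HHC 3 its HHC difference from -0.13 to -0.01. The region at its promoter differed by -0.30 in H (limma adjusted p = 0.108), -0.31 in HC (0.471), 0.16 in HH and -0.02 in HHC. Coverage of the 20 kb before its start was 55.2 to 83.7% in C and 29.4 to 53.3% in H. It was 50.1 to 54.0% in CC_l and 22.2 to 43.9% in HH, and overlapped after weight loss. Its strongest summit lay 8.00 kb from the start in all 22 libraries, past the gene's end, and Smarcd1, Asic1, Cox14, Cers5 and Gm17349 share its locus.

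**Figure D4:**
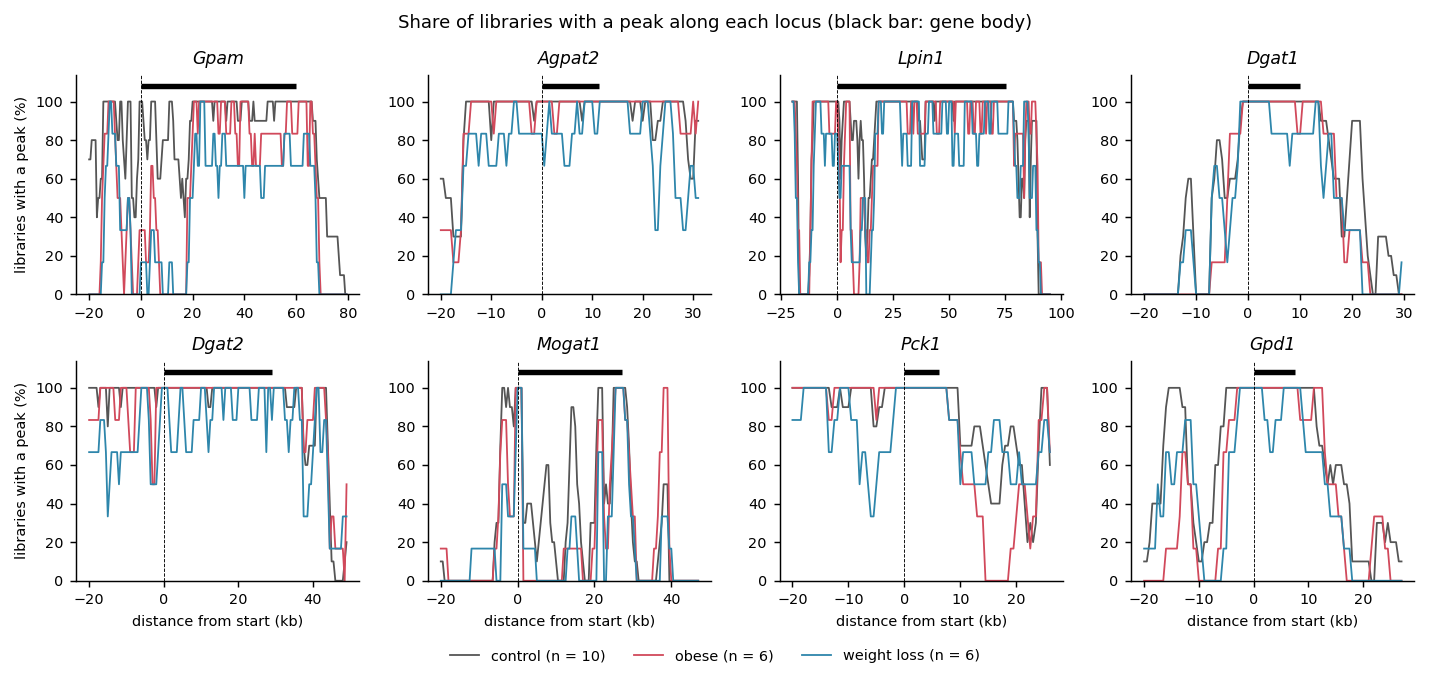
Share of control (n = 10), obese (n = 6) and weight loss (n = 6) libraries with a peak along each locus, in percent, by distance in kb from the annotated start. The curves part around the start of Gpam, where no obese or weight loss library has a peak at 10, 14 or 16 kb, and stay together at the Pck1 and Dgat1 gene bodies.

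Across the list, 1 of 8 loci was called in H against C, 1 of 8 in obesity over both arms and 1 of 8 after weight loss over both arms. Over all loci 6.62% were called higher and 4.38% lower in H, 8.92% either way in obesity and 2.26% after weight loss. A single locus of 8 is too few to be read against these shares. With limma 0 of 8 were called in HC against CC_s, HH against CC_l and HHC against CCC, where 1, 3 and 2 had an unadjusted p under 0.05, beside 8.99%, 12.1% and 4.04% of all loci. In HH against CC_l 0.00579% of all loci were called, and in the other pairs of this kind 0 were. The median difference of the 8 loci was 0.03 in H, 0.09 in HC, 0.08 in HH and -0.26 in HHC, beside -0.01, -0.02, -0.03 and -0.04 over all loci. Of the regions at these loci, 0 of 14 were called in H, 0 of 15 in obesity and 1 of 17 after weight loss, beside 8.28%, 3.94% and 1.39% of all regions, and 0 were called in the other comparisons, over all regions too. At an unadjusted p under 0.01 with a log2 difference above 1 there were 0 of 14 in H (8.52% of all regions), 0 of 15 in HC (2.54%), 0 of 13 in HH (2.68%), 0 of 13 in HHC (0.706%), 0 of 15 in obesity (4.17%) and 1 of 17 after weight loss (2.37%). Between control groups 0 of 14 passed that limit in CC_s against C (0.615%) and 0 of 14 in CCC against CC_l (0.982%). Between control groups, which differ in age and chow, none of the 8 loci was called. At an unadjusted p under 0.05 there were 0 of 8 in CC_s against C, beside 5.44% of all loci, and 1 of 8 in CCC against CC_l, which was Gpam, beside 9.63%.

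**Figure D5:**
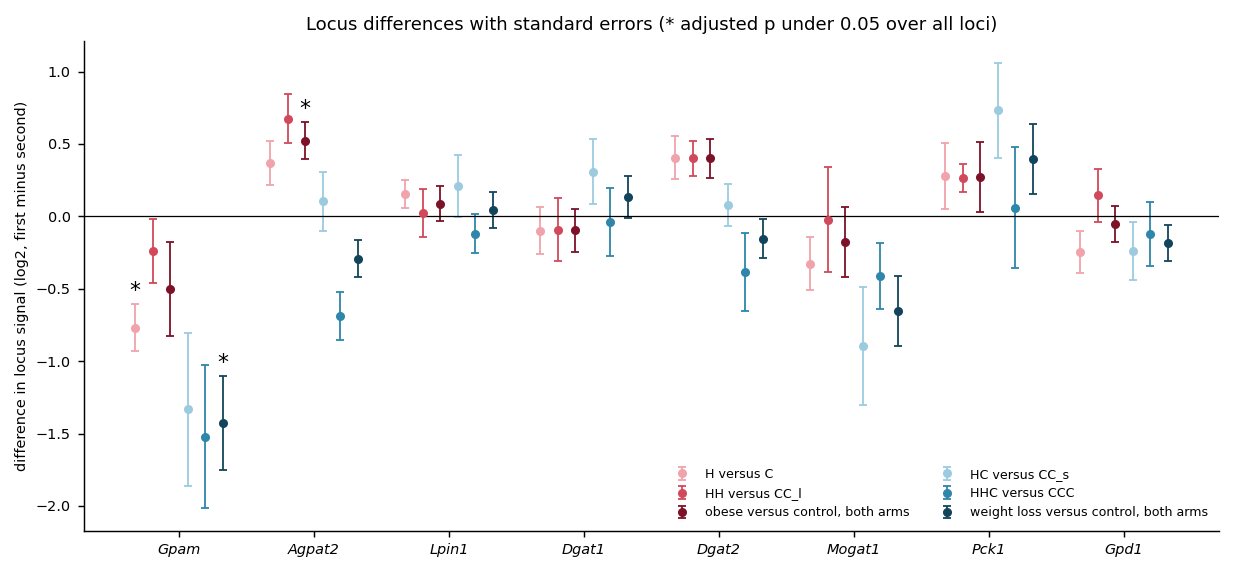
Differences in rank-mapped locus signal (log2, first group minus second) with standard errors for the 8 genes in the 4 pairs and over both arms, with an asterisk where the limma adjusted p over all loci is under 0.05. Gpam lies below 0 in all 6 comparisons, and Agpat2 and Dgat2 lie above 0 in obesity and below 0 in HHC.

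Other genes of the pathway were called in H and in obesity over both arms and in no weight loss comparison, a contrast that was not itself tested. Of 24 listed genes, which include other acyltransferases, phosphatases and lipid droplet proteins, 3 were called higher and 3 lower in H, beside 6.62% and 4.38% of all loci, and 6 higher and 2 lower in obesity over both arms, beside 4.92% and 4%. No gene of the 24 was called in HC or HHC, where 0 of all loci were called. None was called after weight loss over both arms, where 2.26% of all loci were called. Over both arms 4 were higher and 2 lower at an unadjusted limma p under 0.05, a limit that 21.9% of all loci passed. Cds1, which diverts phosphatidic acid to phospholipid synthesis, was higher in H by 1.39 (SE 0.19, limma adjusted p = 0.0122) and Lclat1, an acyltransferase of the same family as Agpat2, by 0.84 (SE 0.14, adjusted p = 0.0185). Mogat2, the intestinal monoacylglycerol acyltransferase, was lower by -1.74 (SE 0.18, adjusted p = 0.00779) in H, beside -0.09 (SE 0.85, adjusted p = 0.976) in HH and -0.92 (adjusted p = 0.454) over both arms. Its signal was 20.79, 20.75 and 21.19 in C, 18.90, 19.13 and 19.48 in H, and 18.20, 19.42 and 21.03 in HH. Mogat2 lies on chromosome 7, as does Dgat2, and a peak that reaches a locus was counted whole. The part of peak extent in the Mogat2 difference was not tested. In HH the difference of Cds1 was 0.76 and that of Lclat1 0.72 (limma adjusted p = 0.304 and 0.243). Over both arms in obesity the smallest p values were those of Cds1 (1.08, SE 0.20), Bscl2, the seipin of the droplet junction (0.46, SE 0.10), and Plpp1, a lipid phosphate phosphatase (0.86, SE 0.21), with limma adjusted p of 0.00354, 0.0127 and 0.0163.

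Signal per kb of locus, in ppm of a library's total signal, set the 8 genes in an order that varied with the library. Its median over the 22 libraries was 6.72 for Dgat2, 5.91 for Pck1, 5.51 for Agpat2, 4.45 for Lpin1, 3.44 for Gpd1, 2.92 for Dgat1, 2.64 for Gpam and 1.28 for Mogat1. Gpam stood at percentile 93.3 of protein-coding genes, Mogat1 at 76.8 and the other 6 above Gpam. Dgat2 exceeded Pck1 in 14 of 22 libraries, and Pck1 exceeded Agpat2 in 13, while Lpin1 exceeded Gpd1 in all 22. The place of Gpam differed between control and diet libraries. Its median was 4.04 in the 10 controls, above those of Gpd1 (3.81) and Dgat1 (3.24), and 2.01 in the 12 obese and weight loss libraries, below those of Gpd1 (3.21) and Dgat1 (2.69). Gpam exceeded Dgat1 in 9 of 10 controls, and Dgat1 exceeded Gpam in 10 of 12 others. Gpam exceeded Gpd1 in 5 of 10 controls, so these were not separated there, and in 0 of 12 others. Gpam ranged from 0.392 to 6.29 over the libraries. The 5 genes outside the pathway whose locus signal followed the mean of the 8 centred profiles most closely over the 22 libraries, out of 13673 ranked, were Mthfd2l (Pearson r = 0.932), Hipk2 (0.890), Samm50 (0.888), Commd2 (0.883) and Il17b (0.881). These points share library, enrichment and peak threshold.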

How the data were processed

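ATAC-seq of adipocyte nuclei captured on streptavidin beads was described by 1 peak list per library. According to the methods of the study and its processing notes, the authors trimmed reads (Trim Galore 0.6.6), aligned them to GRCm38 (Bowtie2 2.4.4, SAMtools 1.13, bedtools 2.30) and called stringent peaks in each library with SEACR 1.3 at a threshold of 0.01. The deposited values are the total and maximum signal of each peak. The authors then removed peaks that overlap blacklisted regions. No normalization is stated for the deposited peak values, while the study log-normalized its own peak count matrices with EdgeR. Of read depth the study gives a minimum per sample but not the value of each library, so no interval from counts is given. HC 3 had the least covered sequence (128 Mb) and CC_s 2 the most (299 Mb), and a locus without a peak may still hold reads.

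For each protein-coding locus, peaks overlapping it by at least 1 base were summed. Loci with signal were ranked in each library and given the mean log2 signal of that rank, with all others at a common floor, for loci, union regions and promoters alike. Groups were compared with limma 3.58.1 (R 4.3.3) with a mean trend, and p was adjusted over all features by the Benjamini-Hochberg method. Loci with an adjusted p below 0.05 were called, and a region or promoter also needed a log2 difference above 1. Comparisons over both arms came from 1 fit of all 22 libraries in 8 groups. The fits were run on simulated data drawn from the mean and spread of C. These held no floor values, weak libraries or spread that differs by group, so they do not test the fits on such features. Tables and sequences were handled in Python 3.11.15 (numpy 2.4.6, pandas 2.3.3, scipy 1.17.1). No 2 libraries were duplicates.

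All 8 genes and the regions at their promoters are named. Of the other pathway genes, up to 3 per comparison with the smallest p among those called are named, and the 5 genes most alike over the libraries. The members and lists were chosen with earlier results of these data known. The promoter fit, the Gpam stretches and the differences between differences were added after the data were seen. Alternatives covered the measure, scaling, flank, peak list, filter, trend, replicate block and single libraries. The 1 mitochondrial peak of each list was set aside.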

Additional observations from a re-analysis of the deposited data

Results flagged for a closer look

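Agpat2 was singled out in the long arm because its locus moved in opposite directions under 2 contrasts with equal-age controls. All HH libraries lay above both CC_l libraries, with a difference of 0.675 on the log2 scale, and all HHC libraries lay below both CCC libraries, with a difference of -0.689. Over all loci 15.3% were higher without overlap in HH and 14.3% lower without overlap in HHC. The difference between these differences was -1.36 (SE 0.27), with a limma adjusted p of 0.425 over all loci, and -1.31 (adjusted p = 0.169) without HC 3 and HHC 3, so it did not pass the test.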

How the results depend on the processing

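Of the 8 loci, 1 was called in H against C (Gpam), 1 in obesity (Agpat2) and 1 after weight loss (Gpam). The count in H was 0 with maximum signal, covered bases, no trend or 1 fit of 8 groups. In obesity it was 0 with maximum signal, covered bases, share scaling at either pseudocount or no flank. After weight loss it was 0 with maximum signal, covered bases, share scaling with a pseudocount of 1 or the 30000 strongest peaks, and 2 (Gpam and Pck1) without HC 3 and HHC 3. Leaving out single libraries gave 0 to 2, 0 to 2 and 0 to 1. Called regions went from 0 to 1 (Mogat1) in H and in obesity with maximum signal, and from 1 to 0 after weight loss with maximum signal, 50% coverage or without HC 3 and HHC 3, and ranged from 0 to 1 without single libraries in H and after weight loss. The cause was not tested.

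Regions at an unadjusted p under 0.01 and a log2 difference above 1 numbered 1 instead of 0 with maximum signal in H, HH and obesity, 2 instead of 0 in HC and 1 instead of 0 in HHC with 1 fit of 8 groups, 1 in HHC without HC 3 and HHC 3, 1 in CCC against CC_l at 50% coverage, and 0 instead of 1 after weight loss with maximum signal, 50% coverage or without those libraries. Single libraries gave 0 to 1 in H, 0 to 2 in HC, 0 to 1 in HHC and 1 to 2 after weight loss. Promoters at that limit numbered 0 instead of 1 with covered bases or share scaling in H and in CCC against CC_l, and 1 instead of 0 in HC without HC 3 and HHC 3, with 0 to 1 in H, 0 to 1 in HC, 1 to 1 in HHC, 0 to 0 in CCC against CC_l and 1 to 2 after weight loss without single libraries.

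Deviations of same-numbered libraries had correlations from -0.21 to 0.14, and those of differently numbered ones from -0.17 to 0.22. With 2 or 3 libraries a group, this cannot settle whether the numbers pair them. With a replicate block 0 loci were called in H (Gpam -0.77, limma adjusted p = 0.0728) and 0 after weight loss (-1.33, 0.0984), 1 in obesity (Agpat2 0.55, 0.0126), 0 regions after weight loss, 1 region at the unadjusted limit in HC and 1 in HHC, and 1 promoter in HC.

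Of 1234 values of the reported loci, promoters and regions under the alternatives, 87 had another sign than the reported difference, 1 of them at a difference that was called (Agpat2 in obesity). With maximum signal it turned in H at Lpin1 (-0.37), Agpat2 (-0.27), Pck1 (-0.15) and Dgat2 (-0.0028), in HC at Lpin1 (-0.030), Dgat1 (-0.22) and Dgat2 (-0.11), in HH at Mogat1 (0.12), Lpin1 (-0.23), Pck1 (-0.23) and Dgat2 (-0.033), in obesity at Lpin1 (-0.30), Gpd1 (0.048), Agpat2 (-0.13), Pck1 (-0.19) and Dgat2 (-0.018), after weight loss at Lpin1 (-0.064) and Dgat1 (-0.23). With covered bases it did so in HH at Mogat1 (0.10), Lpin1 (-0.059), Gpd1 (-0.028) and Pck1 (-0.098), in obesity at Pck1 (-0.030), after weight loss at Agpat2 (0.038) and Dgat2 (0.081). Clipped peaks gave the other sign in HC at Dgat2 (-0.16), in HH at Lpin1 (-0.11) and Pck1 (-0.35), in obesity at Lpin1 (-0.027) and Pck1 (-0.17), after weight loss at Lpin1 (-0.041). Share scaling with a pseudocount of 10 or 1 turned it in H at Lpin1 (-0.067 or -0.068), in HC at Lpin1 (-0.22 or -0.23), Dgat1 (-0.10 or -0.12), Agpat2 (-0.39 or -0.40) and Dgat2 (-0.46 or -0.47), in HH at Lpin1 (-0.13 or -0.14) and Gpd1 (-0.022 or -0.025), in HHC at Pck1 (-0.22 or -0.24), in obesity at Lpin1 (-0.10 or -0.10), after weight loss at Lpin1 (-0.32 or -0.33), Dgat1 (-0.18 or -0.20) and Pck1 (-0.020 or -0.030). Without a flank the sign changed in H at Dgat1 (0.096), in HC at Dgat2 (-0.19), in HH at Lpin1 (-0.015), in HHC at Gpd1 (0.031), in obesity at Dgat1 (0.0050) and Gpd1 (0.062), after weight loss at Gpd1 (0.0090). The 30000 strongest peaks changed it in HH at Mogat1 (0.068) and Dgat1 (0.051), in HHC at Dgat1 (0.068), in obesity at Dgat1 (0.020). A replicate block changed it in HH at Lpin1 (-0.10). Leaving out HC 3 and HHC 3 changed it in HC at Agpat2 (-0.020). Single libraries left out gave a range across 0 in H at Dgat1 (-0.22 to 0.013), in HC at Agpat2 (-0.074 to 0.22) and Dgat2 (-0.024 to 0.14), in HH at Mogat1 (-0.27 to 0.31), Lpin1 (-0.14 to 0.18), Dgat1 (-0.32 to 0.14) and Gpd1 (-0.025 to 0.31), in HHC at Dgat1 (-0.19 to 0.093) and Pck1 (-0.21 to 0.46), in obesity at Dgat1 (-0.21 to 0.019) and Gpd1 (-0.14 to 0.033), after weight loss at Lpin1 (-0.027 to 0.14). The study states a minimum read depth, and the depth of each library is unknown, so its part in missing weak peaks was not tested.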
